A study of Mus musculus with 22 samples.

Results

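The genes described here are 8 members of the interleukin-10 and interleukin-6 signalling route to STAT3: the ligands Il10, Il6 and Lif, the receptor chains Il10ra, Il6ra, Il11ra1 and Il6st, and the transcription factor Stat3. They were chosen by symbol, and all 8 were found among the 770 genes of the deposited NanoString table. In tumours of mice given NHS-muIL12, a fusion of murine interleukin-12 with an antibody that binds the DNA of necrotic tissue, Il10ra was higher than in tumours of mice not given it, by 1.49 ± 0.28 on the log2 scale (SE, 22 mice, limma adjusted p = 0.0010). None of the other 7 genes passed the test in that comparison, in which 22.7% of all tested genes passed. Stat3 itself differed by 0.06 on the same scale, with a 95% interval of -0.11 to 0.23, and by -0.03 when 4 libraries described below were left out. Il11ra1 passed in 1 comparison as lower, as did 2.53% of the tested genes, and its call depended on single mice.

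IL-10 and the IL-6 family are cytokines that reach the nucleus through Janus kinases and STAT3. IL-10 binds a receptor of a ligand-binding chain, IL-10Rα, and a shared chain, and in macrophages and dendritic cells it restrains inflammatory gene expression. IL-6 and IL-11 bind their own α chains, and LIF binds the LIF receptor, and all of them then signal through gp130, the product of Il6st. In tumours, STAT3 activity has been described both in malignant cells and in infiltrating myeloid cells. STAT3 is activated by phosphorylation, which a measurement of RNA does not read.

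The tumours came from EMT-6, a line derived from a mouse mammary carcinoma, injected into the mammary fat pad. The hosts were BALB/c mice. Mice were randomized when tumours reached about 100 mm3. NHS-muIL12 was given under the skin on day 0, and avelumab, an antibody against PD-L1, into a vein at 200 µg on days 0, 3 and 6. Tumour tissue was taken on day 6. The groups with avelumab were avelumab alone (3 mice), avelumab plus 2 µg NHS-muIL12 (4 mice) and avelumab plus 10 µg NHS-muIL12 (4 mice). The groups without avelumab were isotype control (4 mice), 2 µg NHS-muIL12 (4 mice) and 10 µg NHS-muIL12 (3 mice). All 6 groups carried the same cell line in the same mouse strain, and each library came from 1 mouse. Replicate numbers below are those of the labels, in which the avelumab mice are replicates 2, 3 and 4.

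The values used were linear NanoString signal after removal of a background, so that dim genes stop at 0. Total signal per library ran from 300174 to 511105. The libraries differed at their dim end. The lower quartile of signal was 37.5 and 42.2 in isotype control replicates 1 and 2, 50.2 in 2 µg NHS-muIL12 replicate 3 and 33.3 in 10 µg NHS-muIL12 replicate 3, and ran from 3.06 to 19.1 in the other 18. The comparisons were also fitted without these 4 libraries. Tumour epithelial markers were dim. Of 6 listed, Epcam, Cdh1 and Muc1 were measured, and their summed signal ran from 89.6 to 282 over the 22 tumours, so the tumour cell line could be checked only against a few dim markers. RNA came from whole tumours, in which fewer cells of a type and less RNA per cell cannot be told apart.

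**Figure D1:**
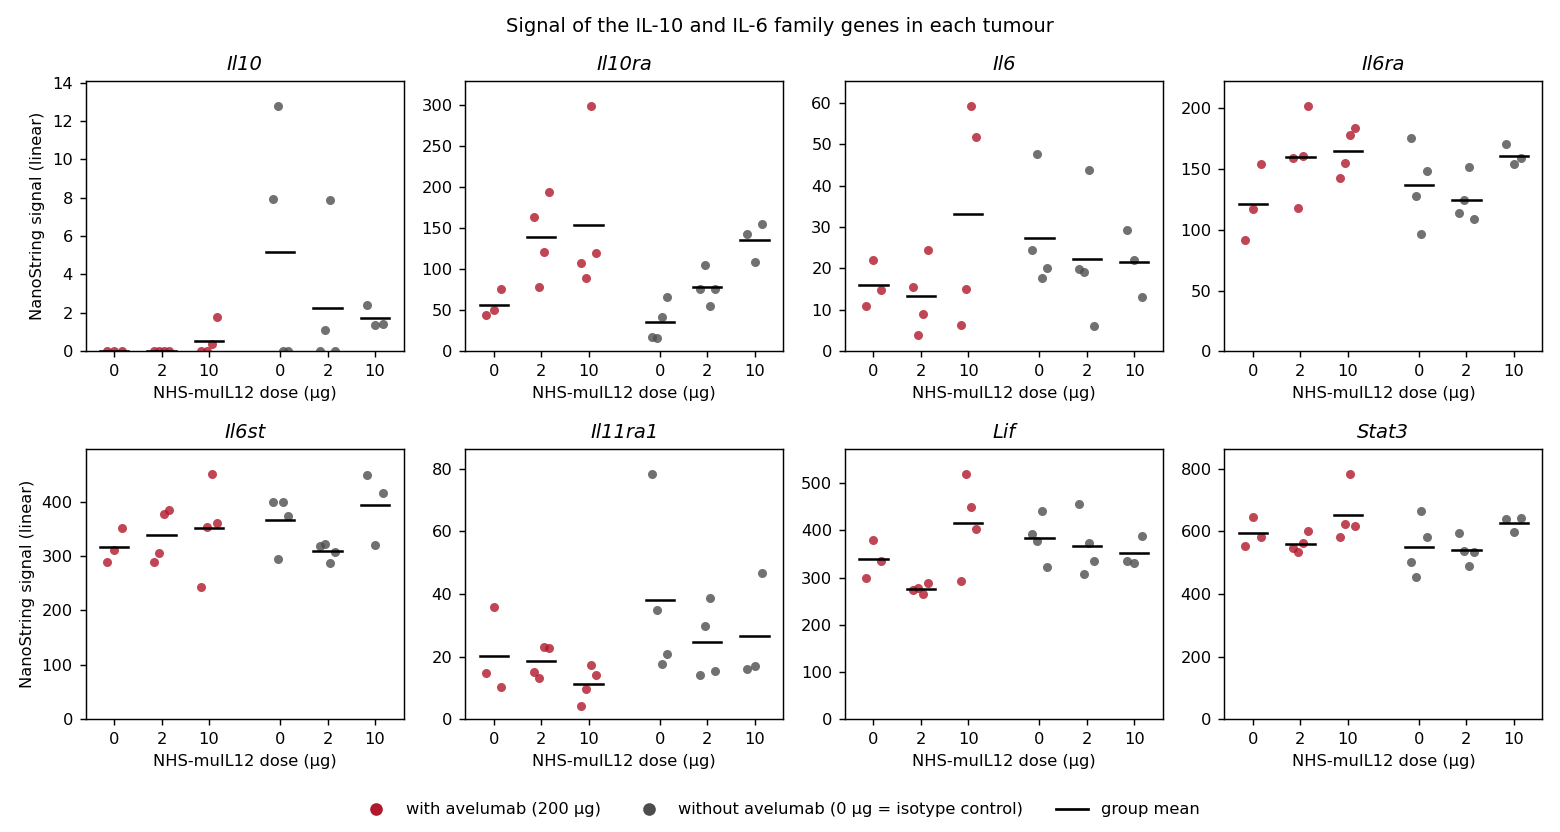
Signal of the 8 genes in each tumour on a linear axis that starts at 0, by dose of NHS-muIL12 (0, 2 and 10 µg), with avelumab in red and without it in grey. Each point is 1 mouse and each bar a group mean of 3 or 4 mice. Il10ra lay above all 4 isotype control tumours in every mouse of both avelumab plus NHS-muIL12 groups and of the 10 µg group, and Il10 was listed at 0 in 13 of 22 tumours.

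Among the ligands, Il10 was barely measured. This gene encodes the anti-inflammatory cytokine IL-10. It was listed at 0 in all 3 avelumab tumours and all 4 avelumab plus 2 µg tumours. In avelumab plus 10 µg tumours it was 0, 0, 0.357 and 1.79. Il10 signal was 7.95, 12.8, 0 and 0 in isotype control tumours, 0, 1.098, 7.86 and 0 in 2 µg NHS-muIL12 tumours, and 2.39, 1.35 and 1.399 in 10 µg NHS-muIL12 tumours. The 3 values above 7 belonged to 3 of the 4 libraries with a high lower quartile. No fold is given, because whole groups were at 0. Averaged over doses, the groups with avelumab lay below those without it by -1.24 on the log2(signal + 1) scale (95% interval -2.23 to -0.25), which did not pass (limma adjusted p = 0.252). In that comparison 0 of the 750 genes passed (0%), against 128 at an unadjusted p under 0.05. This Il10 difference was -0.46 without the 4 libraries (limma adjusted p = 0.598), and both remaining isotype control tumours were at 0. With sample weights it was -1.48 and passed (limma adjusted p = 0.0119). Il10 counts above background were at most 11 in any tumour.

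The other ligands were Il6 and Lif, both of which signal through gp130. A stretch of 250 bases before the RefSeq start of each gene on GRCm38.p6 is shown because among the members only these windows held matches both to an AP-1 motif, TGANTCA, and to an NF-kappaB-like motif, which reads GGGA, 4 bases of any kind and CC. Both strands were searched, and capitals mark the matches. The Il6 window is chr5:30012864-30013113 and the Lif window chr11:4257318-4257567, both on the + strand.
Il6: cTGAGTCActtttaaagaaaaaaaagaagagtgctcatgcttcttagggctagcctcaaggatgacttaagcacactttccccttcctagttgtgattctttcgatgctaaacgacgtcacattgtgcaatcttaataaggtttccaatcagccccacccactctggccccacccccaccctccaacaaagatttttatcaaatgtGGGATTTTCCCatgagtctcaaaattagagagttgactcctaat
Lif: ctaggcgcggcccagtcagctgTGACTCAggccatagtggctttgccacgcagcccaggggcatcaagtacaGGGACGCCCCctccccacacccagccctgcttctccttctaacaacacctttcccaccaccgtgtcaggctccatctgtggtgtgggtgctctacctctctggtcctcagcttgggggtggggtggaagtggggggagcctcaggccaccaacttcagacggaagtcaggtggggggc
Of the 8 members, 6 matched an entry of the promoter table, in 7 windows, of which 2 are of Il11ra1. Il10 and Il10ra matched no entry, so the motif counts do not cover them. The AP-1 motif occurred in 2 of the 7 and in 6.75% of the 32851 windows of the same length in the table. The NF-kappaB-like motif occurred in 3 of the 7, the other being that of Il6ra, and in 17.6% of all windows. A motif that STAT proteins can bind, TTC and GAA with 3 bases of any kind between them, occurred in 0 of the 7 and in 7.02% of all windows. The core of the interferon-stimulated response element, GAAA and GAAA with 2 bases of any kind between them, occurred in 0 of the 7 and in 2.98% of all windows. The NF-kappaB-like matches in Il6 are a pair that overlap on opposite strands.

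Il6 encodes IL-6, an inflammatory cytokine. Its signal was low and varied widely between mice. It was 10.9, 21.98 and 14.9 with avelumab, 15.6, 3.97, 9.01 and 24.5 with avelumab plus 2 µg, and 6.31, 14.9, 59.3 and 51.8 with avelumab plus 10 µg. It was 24.3, 47.7, 17.6 and 20.1 with isotype control, 19.97, 19.03, 43.8 and 6.17 with 2 µg NHS-muIL12, and 29.3, 21.97 and 13.1 with 10 µg NHS-muIL12. Every pair of groups overlapped, and the highest tumours, avelumab plus 10 µg replicates 3 and 4, shared a group with the third lowest tumour of all. Any NHS-muIL12 against none gave a log2 difference of -0.15, with an interval of -1.07 to 0.77, and of 0.03 without the 4 libraries.

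Lif encodes leukaemia inhibitory factor, and it was the brightest of the 3 ligands. Its signal was 300.0, 381 and 335 with avelumab, 274, 278, 265 and 288 with avelumab plus 2 µg, and 292, 521, 449.7 and 403 with avelumab plus 10 µg. It was 393, 378, 441 and 322 with isotype control, 455, 307, 374 and 336 with 2 µg NHS-muIL12, and 335, 331 and 389 with 10 µg NHS-muIL12. The 4 avelumab plus 2 µg tumours were the lowest of all 22 and lay within a narrow range. They averaged 276 ± 9.75, against 383 ± 48.8 in isotype control tumours (SD, n = 4 each). The log2 difference was -0.46 ± 0.16, and it did not pass (limma adjusted p = 0.0771). Against isotype control, 4.13% of the tested genes had all avelumab plus 2 µg tumours lower. At 10 µg with avelumab all 4 tumours were above all avelumab plus 2 µg tumours, by 0.56 ± 0.16 on the log2 scale, an order that 2.8% of the tested genes shared. That difference also did not pass (limma adjusted p = 0.543, unadjusted p = 0.0029), and in this comparison 0 of the 750 genes passed (0%), against 35 at an unadjusted p under 0.05. Adding 2 µg NHS-muIL12 to avelumab moved Lif by -0.29 (limma adjusted p = 0.348), and adding avelumab to 2 µg NHS-muIL12 moved it by -0.40 (limma adjusted p = 0.422). All 4 combination tumours were lower in both of these comparisons, as they were for 7.07% and 2.53% of the tested genes. In the second, 0.267% of the tested genes passed. Under quantile normalization Lif passed as lower with avelumab plus 2 µg against isotype control, by -0.75 (limma adjusted p = 0.0049), and with sample weights it did so by -0.47 (limma adjusted p = 0.0161). Without the 4 libraries of high lower quartile this difference was -0.45 and did not pass (limma adjusted p = 0.380). The difference between the 2 combination doses was then 0.56 and did not pass either (limma adjusted p = 0.780).

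Among the receptors, Il10ra, which encodes the chain that binds IL-10, was higher with NHS-muIL12. Its signal was 44.4, 51.0 and 75.7 with avelumab, 163, 78.5, 121 and 195 with avelumab plus 2 µg, and 107, 89.8, 299.6 and 119.7 with avelumab plus 10 µg. It was 17.8, 16.3, 42.0 and 65.8 with isotype control, 76.5, 105, 55.4 and 76.1 with 2 µg NHS-muIL12, and 143, 109 and 156 with 10 µg NHS-muIL12. All tumours of both combination groups and of the 10 µg group exceeded every isotype control tumour. The 2 µg tumours and the avelumab tumours overlapped with isotype control, and 1 tumour, avelumab plus 10 µg replicate 3, stood above all others.

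Il10ra averaged 154 ± 97.8 with avelumab plus 10 µg, against 35.5 ± 23.4 with isotype control (SD, n = 4 each). The log2 difference was 2.15 ± 0.43, or 4.43-fold (95% interval on the log2 scale 1.24 to 3.06, limma adjusted p = 0.0044). In this comparison 19.7% of the tested genes passed, 17.2% as higher. These were 129 higher and 19 lower genes, a split that was 67 and 28 with each sample centred on its median and 91 and 109 under quantile normalization. With avelumab plus 2 µg Il10ra averaged 139 ± 50.5 (n = 4), and the difference from isotype control was 2.10 ± 0.43 (1.19 to 3.01, limma adjusted p = 0.0076). Here 9.47% of the tested genes passed. With 10 µg NHS-muIL12 alone it averaged 136 ± 23.9 (n = 3), a difference of 2.13 ± 0.47 (1.14 to 3.11, limma adjusted p = 0.0087), in a comparison in which 10.5% of the tested genes passed. In these comparisons 16.9%, 12.9% and 20% of the tested genes had all treated tumours above all isotype control tumours. These comparisons, and those of the other groups below, share the same isotype control mice and are not independent of each other.

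At 2 µg without avelumab Il10ra averaged 78.3 ± 20.5 (SD, n = 4), and its log2 difference from isotype control of 1.32, with an interval of 0.41 to 2.23, did not pass (limma adjusted p = 0.324). With avelumab alone it averaged 57.0 ± 16.5 (SD, n = 3), a difference of 0.86 with an interval of -0.12 to 1.85 (limma adjusted p = 0.715). In each of these comparisons 0 of the 750 genes passed (0%), against 59 and 38 at an unadjusted p under 0.05. With sample weights the 2 µg difference for Il10ra passed, at 2.00 (limma adjusted p = 0.0027). Without the 4 libraries the 2 µg difference was 0.68 and the avelumab difference 0.08, and neither passed. With avelumab plus 10 µg every tumour lay above all 3 avelumab tumours, by 1.28 on average (0.30 to 2.26), which did not pass (limma adjusted p = 0.0719). With avelumab plus 2 µg every tumour did so too, by 1.23 (0.25 to 2.22, limma adjusted p = 0.102). Of the tested genes, 16.9% and 10.8% passed in these comparisons, and 18.4% and 16.8% had all combination tumours higher.

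In order of mean log2 signal, Il10ra ran from isotype control through avelumab, 2 µg NHS-muIL12, avelumab plus 2 µg and 10 µg NHS-muIL12 to avelumab plus 10 µg. The gaps from isotype control to avelumab and from 2 µg to avelumab plus 2 µg were 1.38 and 1.25 times the spread within groups. The other neighbours differed by less than that spread, and the upper 3 groups by 0.05 in all. Without avelumab the 10 µg tumours were above all 2 µg tumours, by 0.81 (limma adjusted p = 0.484), which 15.5% of the tested genes shared. With avelumab the doses differed by 0.05, with an interval of -0.86 to 0.96. Adding avelumab moved Il10ra by 0.78 at 2 µg and by 0.02 at 10 µg, and averaged over doses by 0.55 (0.00 to 1.11, limma adjusted p = 0.290), or by 0.28 without the 4 libraries. The interaction tests, which ask whether the effect of NHS-muIL12 differed with avelumab, gave -0.08 at 2 µg and -0.85 at 10 µg for Il10ra, and 0 of the 750 genes passed at either dose (0%), against 37 and 16 at an unadjusted p under 0.05. These Il10ra values were 0.55 and 0.04 without the 4 libraries, and under quantile normalization -1.38 and -2.30. Nor did any gene pass between the NHS-muIL12 doses without avelumab, or between avelumab plus 10 µg and 10 µg alone, against 103 and 35 at an unadjusted p under 0.05.

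**Figure D2:**
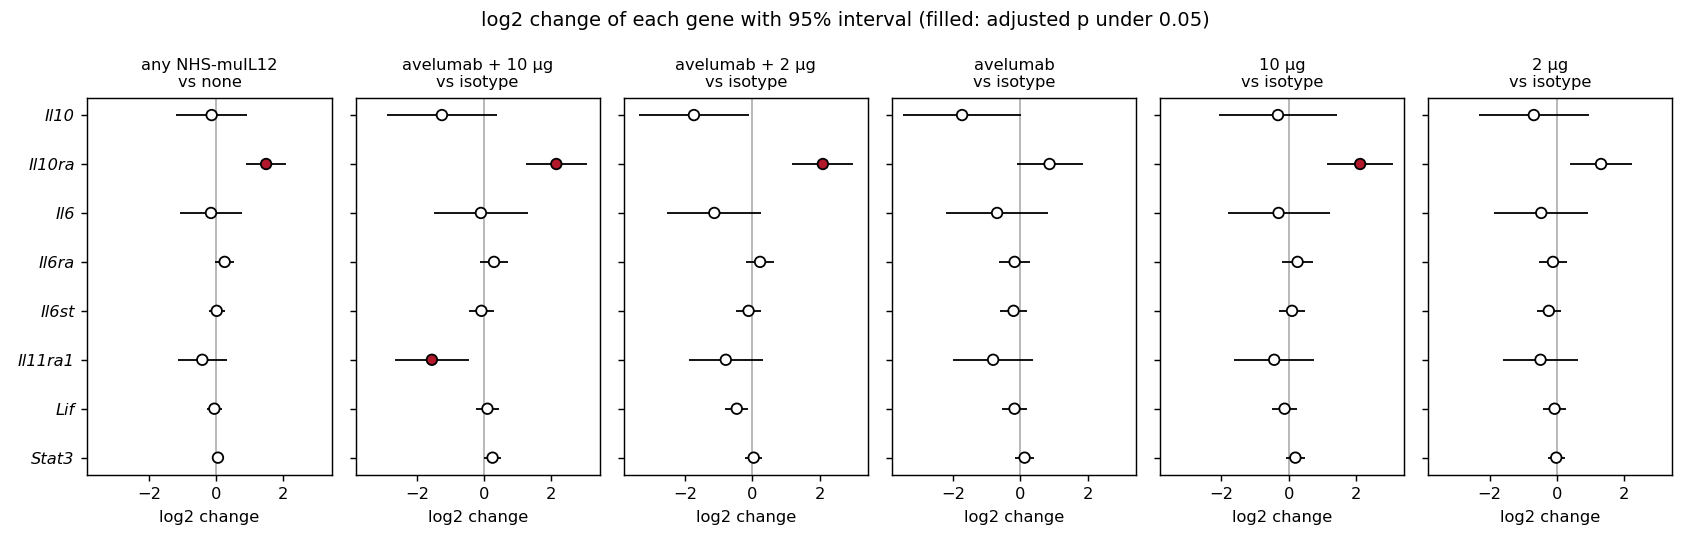
The log2 change of each gene for any NHS-muIL12 against none and for each group against isotype control, with 95% intervals from the 6-group limma fit. Filled points passed at an adjusted p under 0.05: these are Il10ra for any NHS-muIL12, avelumab plus 10 µg, avelumab plus 2 µg and 10 µg NHS-muIL12, and Il11ra1 for avelumab plus 10 µg.

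For any NHS-muIL12 against none, 1 of the 8 members passed, where 22.7% of the tested genes passed. The median log2 change of the members was -0.01, and that of all tested genes 0.07. The F test over all 6 groups passed for Il10ra alone among the members (limma adjusted p = 0.0088), where 16.9% of the tested genes passed. Against isotype control 2 of 8 members passed with avelumab plus 10 µg and 1 of 8 each with avelumab plus 2 µg and with 10 µg NHS-muIL12. Among 8 genes, 1 or 2 calls are near the background share or below it.

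Isotype control replicates 1 and 2 had the lowest Il10ra signal of all 22 tumours and are among the libraries with a high lower quartile. Without the 4 such libraries, which leaves 2 isotype control tumours, the log2 differences were 1.36 with avelumab plus 10 µg, 1.31 with avelumab plus 2 µg and 1.24 with 10 µg NHS-muIL12. None of them passed (limma adjusted p = 0.106, 0.240 and 0.284), and in these fits 0 of the 750 genes passed, against 163, 107 and 111 at an unadjusted p under 0.05. For any NHS-muIL12 against none Il10ra kept its call without them, at 1.11 (0.50 to 1.71, limma adjusted p = 0.0193). Against avelumab alone, whose libraries are not among the 4, avelumab plus 10 µg then passed at the unchanged difference of 1.28 (limma adjusted p = 0.0443). When 1 mouse at a time was left out, all 4 calls held in every fit, and the difference for any NHS-muIL12 ran from 1.35 to 1.67. When only the groups of a comparison were fitted, the calls against isotype control were lost (limma adjusted p = 0.064 to 0.095). Quantile normalization made the same 3 differences larger, at 3.13, 3.14 and 3.06, and that of avelumab alone as well, at 2.36. It made those over avelumab smaller, at 0.76 with avelumab plus 10 µg and 0.78 with avelumab plus 2 µg (limma adjusted p = 0.585 and 0.587).

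**Figure D3:**
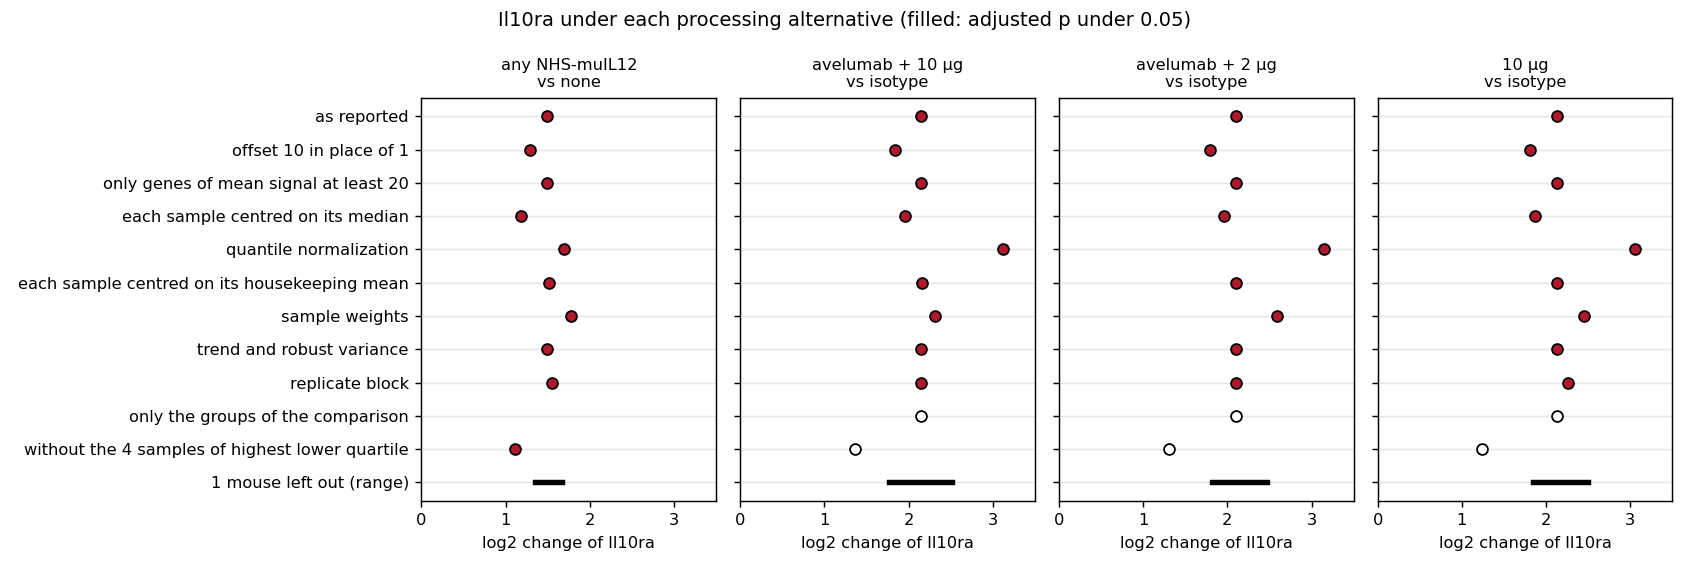
The log2 change of Il10ra in 4 comparisons under each processing alternative, filled where the adjusted p was under 0.05. The black bar spans the fits that leave out 1 mouse. All points lie above 0, and the open points are the fits to the groups of the comparison alone and, against isotype control, those without the 4 libraries of high lower quartile.

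Il10ra is made mainly by leukocytes, and some leukocyte markers moved with it. Ptprc, which encodes CD45, the common surface protein of leukocytes, was higher by 1.08 for any NHS-muIL12 against none (limma adjusted p = 0.0012). Its signal ran from 134 to 260.0 with avelumab, 236 to 533 with avelumab plus 2 µg, 258 to 717 with avelumab plus 10 µg, 115 to 225 with isotype control, 207 to 365 with 2 µg and 419.6 to 457 with 10 µg NHS-muIL12. Of 10 measured macrophage markers 5 rose in the same comparison (Cd68, Fcgr1, Itgam, Msr1 and Siglec1) and none fell, where 20.7% of all tested genes passed as higher. Their summed signal ran from 2038 to 4192 with avelumab, 4093 to 5296 with avelumab plus 2 µg, 4682 to 9531 with avelumab plus 10 µg, 2181 to 4518 with isotype control, 3766 to 4290 with 2 µg and 4417 to 5448 with 10 µg. Marco was at 0 in every avelumab and isotype control tumour. Of 9 natural killer cell markers 4 rose (Klrc1, Klrd1, Klrk1 and Ncr1), of 11 T cell markers 1 did (Cd3g), and of 7 B cell and 5 dendritic cell markers measured 0 passed, against 0 and 1 at an unadjusted p under 0.05. The summed signal of T cell, dendritic cell, and mast cell and eosinophil markers averaged highest in isotype control, at 332, 94.0 and 226. These sums varied widely there, from 86.4 to 569, 26.2 to 149 and 74.8 to 394. Their markers were dim, the brightest being Cd3d, Ccr7 and Cma1 at mean signals of 57.2, 31.1 and 43.6. The averages include isotype control replicates 1 and 2, which are libraries of high lower quartile. The part of these libraries in the averages was not tested. Without the 4 libraries Ptprc rose by 0.94 (limma adjusted p = 0.0223), and 3 macrophage markers passed.

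The difference of log2 Il10ra and log2 Ptprc averaged -1.64 ± 0.23 with avelumab, -1.53 ± 0.35 with avelumab plus 2 µg and -1.44 ± 0.23 with avelumab plus 10 µg (SD). It averaged -2.46 ± 0.62 with isotype control, -1.87 ± 0.30 with 2 µg and -1.70 ± 0.20 with 10 µg NHS-muIL12 (SD). Isotype control had the lowest mean and the widest spread, from -3.06 to -1.63, and the 5 treated groups lay closer together. Its replicates 1 and 2, which are libraries of high lower quartile, held its lowest differences. Their log2 Il10ra was 4.23 and 4.11, with log2 Ptprc of 7.29 and 6.86. In replicates 3 and 4 log2 Il10ra was 5.42 and 6.06, with log2 Ptprc of 7.82 and 7.69. All of these group means include the 4 libraries of high lower quartile. The part of leukocyte number in the Il10ra difference was not tested.

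**Figure D4:**
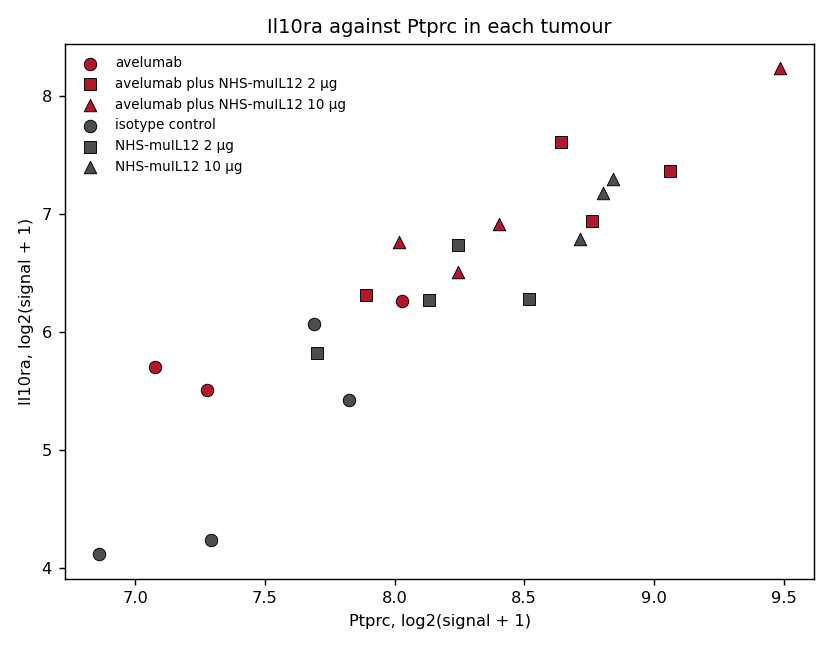
Il10ra against Ptprc in each tumour, both as log2(signal + 1), with avelumab groups in red and the others in grey, and a symbol for each group. Tumours with more Ptprc had more Il10ra in general, and the 2 lowest points on the Il10ra axis are isotype control replicates 1 and 2.

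Il6ra encodes the α chain that binds IL-6. Its signal was 91.8, 117 and 154 with avelumab, 159, 118, 161 and 202 with avelumab plus 2 µg, and 143, 155, 178 and 184 with avelumab plus 10 µg. It was 175, 128, 96.6 and 148 with isotype control, 113, 125, 152 and 109 with 2 µg NHS-muIL12, and 170.3, 154 and 159 with 10 µg NHS-muIL12. The 10 µg tumours were the highest without avelumab apart from isotype control replicate 1. Each lay above all 2 µg tumours, an order that 15.5% of the tested genes shared. For any NHS-muIL12 against none the difference was 0.26 (-0.02 to 0.53, limma adjusted p = 0.164). Its largest difference between groups, avelumab plus 10 µg over avelumab, was 0.47 (0.02 to 0.92) and did not pass (limma adjusted p = 0.156).

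Il11ra1 encodes the α chain that binds IL-11. Its signal was 14.8, 35.8 and 10.2 with avelumab, 14.9, 13.3, 23.1 and 22.8 with avelumab plus 2 µg, and 4.29, 9.67, 17.3 and 14.1 with avelumab plus 10 µg. It was 78.4, 34.9, 17.6 and 20.9 with isotype control, 14.2, 29.7, 38.7 and 15.4 with 2 µg NHS-muIL12, and 15.9, 17.0 and 46.7 with 10 µg NHS-muIL12. All avelumab plus 10 µg tumours were below all isotype control tumours, although 17.3 and 17.6 nearly touched. The difference was -1.56 ± 0.52 (-2.66 to -0.45) and passed (limma adjusted p = 0.0456), in a comparison in which 2.53% of the tested genes passed as lower and 2.13% did not overlap. It was lost in 6 of the 8 fits that left out 1 mouse, with values of -1.83 to -1.13 and limma adjusted p up to 0.162. The 4 libraries of high lower quartile held 4 of the 5 highest Il11ra1 values, and without them the difference was -0.85 (limma adjusted p = 0.349). Quantile normalization gave -0.86 (limma adjusted p = 0.184). The mouse genome holds a near-identical gene, Il11ra2, and whether the probe separates them was not tested. Il11, the ligand, did not pass in any comparison with isotype control.

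Il6st encodes gp130, the chain that IL-6, IL-11 and LIF receptors share. Its signal was 288, 310.3 and 351 with avelumab, 289, 305, 378 and 385 with avelumab plus 2 µg, and 243, 353, 452 and 360.4 with avelumab plus 10 µg. It was 399.7, 295, 399 and 373 with isotype control, 319, 321, 288 and 307 with 2 µg NHS-muIL12, and 448, 319.8 and 415 with 10 µg NHS-muIL12. No pair of groups was free of overlap. The difference for any NHS-muIL12 against none was 0.02, with an interval of -0.22 to 0.26. Under quantile normalization Il6st passed as lower with avelumab plus 10 µg against isotype control, at -0.52 (limma adjusted p = 0.0131).

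Stat3, the transcription factor on which these receptors converge, was the brightest of the 8 probes and the least variable between mice. Its signal was 555, 647 and 582 with avelumab, 546, 534, 563 and 601 with avelumab plus 2 µg, and 583, 624, 785 and 617 with avelumab plus 10 µg. It was 501, 456, 664 and 581 with isotype control, 596, 538, 491 and 536 with 2 µg NHS-muIL12, and 640.0, 597 and 642 with 10 µg NHS-muIL12. All 10 µg tumours lay above all 2 µg tumours, but narrowly, with a lowest of 597 against a highest of 596 (limma adjusted p = 0.525). Of the tested genes 15.5% shared that order. The largest difference from isotype control, with avelumab plus 10 µg, was 0.25 (-0.01 to 0.51) and did not pass (limma adjusted p = 0.159). It was 0.06 (-0.23 to 0.36) without the 4 libraries, and that of 10 µg NHS-muIL12 alone was -0.01 in place of 0.20. With sample weights Stat3 passed in both, at 0.30 and 0.29 (limma adjusted p = 0.0325 and 0.0305). In the fit with all mice the 95% interval of Stat3 against isotype control lay within 1.5-fold in each treated group. Quantile normalization turned the direction of Stat3 for any NHS-muIL12 against none to -0.29 (limma adjusted p = 0.0042) and that of Il6st to -0.32 (limma adjusted p = 0.0086).

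Other genes of the route were described from lists chosen by function. Among its kinases, other STATs and inhibitors, 2 of 10 genes described rose for any NHS-muIL12 against none, and none fell. That share is close to the 20.7% of all tested genes that passed as higher there. Stat2, a transcription factor of type I interferon signalling, rose by 0.81 ± 0.19 (limma adjusted p = 0.0049), and Socs1, an inhibitor of Janus kinases, by 0.95 ± 0.24 (limma adjusted p = 0.0074). Stat2 signal ran from 255 to 371 with avelumab, 407 to 797 with avelumab plus 2 µg and 378 to 979 with avelumab plus 10 µg. It ran from 262 to 357 with isotype control, 253 to 491 with 2 µg and 497 to 868 with 10 µg NHS-muIL12. All Stat2 values of both combination groups and of the 10 µg group thus lay above those of isotype control, and the 2 µg group overlapped with it. Of the tested genes, 12.9%, 16.9% and 20% did so with avelumab plus 2 µg, avelumab plus 10 µg and 10 µg NHS-muIL12. Without the 4 libraries Socs1 kept its call in the comparison of any NHS-muIL12 with none, and Stat2, at 0.74, did not (limma adjusted p = 0.0531). The difference of Socs3, the inhibitor that STAT3 itself induces, was -0.34 (-0.69 to 0.02, limma adjusted p = 0.161). With avelumab plus 10 µg against isotype control 3 of the 10 rose: Stat2 (0.90), and by smaller amounts Stat6 (0.33) and the Janus kinase Jak2 (0.30), where 17.2% of all tested genes passed as higher. Their differences without the 4 libraries were of similar size, at 0.86, 0.30 and 0.38, and did not pass, in a fit in which 0 of the 750 genes did.

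Among genes known as STAT3 targets, 1 of 18 measured rose for any NHS-muIL12 against none. This was Icam1, an adhesion molecule that interferon and NF-kappaB signals also induce, at 0.99 ± 0.22 (limma adjusted p = 0.0028). Of all tested genes 22.7% passed. At an unadjusted p under 0.05 there were 9 of the 18, against 35.6% of all tested genes. The median over the 18 was -0.14, against 0.07 over all tested genes. For avelumab plus 2 µg against avelumab 3 of the 18 passed, where 10.8% of all tested genes did, 9.6% as higher and 1.2% as lower. Directions differed among the targets there. Mean log2 signal was 8.66 with avelumab and 7.62 with avelumab plus 2 µg for Fos, and 10.48 and 9.96 for Myc. For Icam1 it was 5.67 and 6.92. The F test over the 6 groups passed for 3 of the 18, where 16.9% of all tested genes passed. With avelumab plus 10 µg against isotype control 3 rose: Icam1 (1.02), Il1rn, which encodes the IL-1 receptor antagonist (1.29), and Cebpb, a transcription factor of myeloid and inflammatory genes (0.58). Birc5, which encodes survivin and is high in dividing cells, fell by 0.53 (limma adjusted p = 0.0457). These 4 of 18 stand beside 19.7% of all tested genes. Without the 4 libraries neither these genes nor any other passed against isotype control, with differences of 1.35 for Icam1, 1.08 for Il1rn, 0.56 for Cebpb and -0.55 for Birc5.

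Of 5 other receptor chains measured, 1 passed for any NHS-muIL12 against none, where 22.7% of all tested genes did. This was Il21r, higher by 1.15 ± 0.23 (limma adjusted p = 0.0012), and by 1.18 without the 4 libraries (limma adjusted p = 0.0164). None of the 5 passed in any group against isotype control. Mean log2 Il21r was 5.68 with isotype control and 4.69 with avelumab, against 5.97 to 6.57 in the groups with NHS-muIL12. Il21r, the IL-21 receptor of lymphocytes, ran from 22.4 to 27.6 with avelumab, 57.8 to 98.5 with avelumab plus 2 µg, 43.4 to 198 with avelumab plus 10 µg, 39.5 to 62.0 with isotype control, 46.3 to 77.2 with 2 µg and 64.9 to 117 with 10 µg NHS-muIL12. The avelumab tumours were thus the lowest, with no overlap with any other group. Of the tested genes, 3.33% had all avelumab tumours below all isotype control tumours. All avelumab plus 2 µg tumours were above all avelumab tumours for 16.8%, and all avelumab plus 10 µg tumours for 18.4%. Of 10 other ligands measured, 0 passed in any limma comparison, against 0 to 4 at an unadjusted p under 0.05. Il27 and Il22 were listed at 0 in all 22 tumours. The receptor partners Il10rb, Lifr and Osmr were not analysed here.

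**Figure D5:**
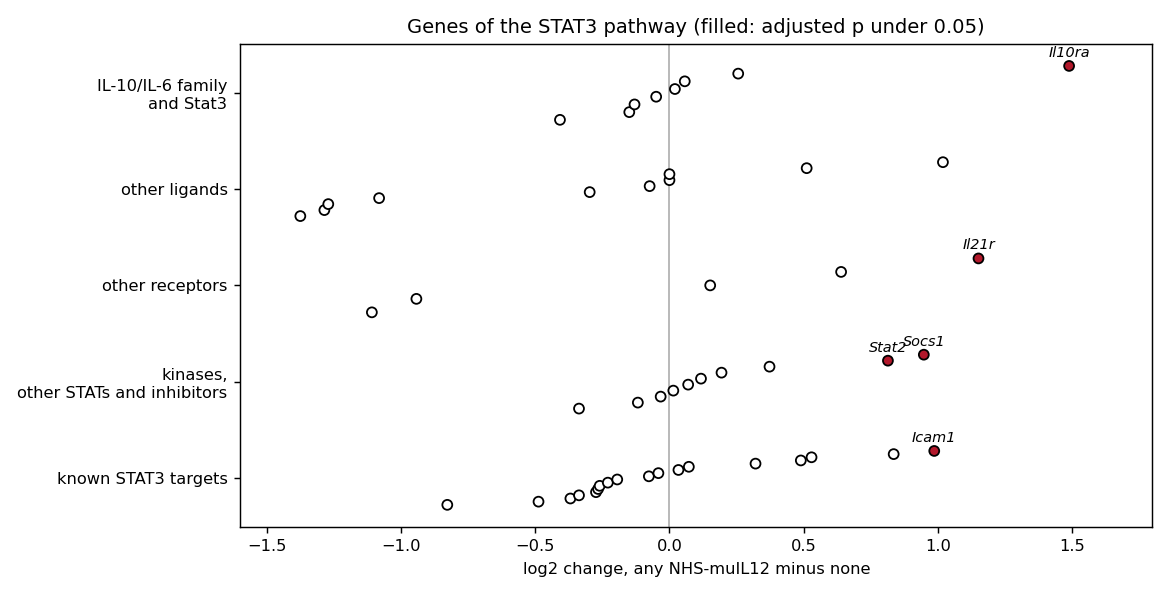
The log2 change for any NHS-muIL12 against none of the 8 genes and of 4 lists of other genes of the route, 1 point per gene described, spread vertically within a list for legibility. Filled and named points passed at an adjusted p under 0.05: Il10ra, Il21r, Stat2, Socs1 and Icam1.

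The genes whose pattern over the 22 tumours was most like that of each member were sought among 443 tested genes whose mean signal reached 50. For Il10ra these were Cybb, a subunit of the phagocyte NADPH oxidase (Pearson's r = 0.94), H2-Aa, a class II antigen-presenting chain (r = 0.92), and H2-Ea-ps, of the same gene family (r = 0.92). For Stat3 they were Tnfrsf1a (r = 0.84), Rsad2 (r = 0.79) and Il1rn (r = 0.79), and for Il6ra Csf2rb (r = 0.80), Amica1 (r = 0.78) and Atg7 (r = 0.77). For Il6st they were Eng (r = 0.74), Il4ra (r = 0.71) and Il1r1 (r = 0.70), and for Lif Tollip (r = 0.72), Angpt2 (r = 0.68) and Egr1 (r = 0.67). The dim members gave Csf3r (r = 0.73), H60a (r = 0.73) and Socs3 (r = 0.71) for Il6, Ifna1 (r = 0.75), Bcl2 (r = 0.75) and Tmed1 (r = 0.75) for Il11ra1, and H60a (r = 0.82), Rrad (r = 0.80) and Tyk2 (r = 0.75) for Il10. These are descriptions over 22 mice that share the library differences at the dim end, and the treatment groups enter each r.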

How the data were processed

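Total RNA of 22 tumours, 1 library per mouse, was measured by NanoString probe counting. Per the values deposited by the authors, the unit is a linear signal per gene, with a background removed that stops at 0 and a factor multiplied in per sample; these steps were read off the values, whose spacing corresponds to 0.664 to 1.68 signal per count. Which software, background and scaling were used is not given in the sources used here. Counts above background came to 197653 to 572089 per library. Because the deposited values are not raw counts, log2(signal + 1) was tested with limma 3.58.1 in R 4.3.3 (statmod 1.5.0). A mean was fitted for each of the 6 groups over all 22 samples (16 residual degrees of freedom), with Benjamini-Hochberg adjustment over 750 genes in each of 16 comparisons. The 20 housekeeping genes were not tested, and a gene passed at an adjusted p under 0.05. The script was tested on simulated data. P-values measure the spread between these mice. Of the members, 7 of 8 had a mean signal of at least 20, Il10 being the exception. Members and gene lists were chosen with earlier results of these data known. All 8 members are named, with up to 4 called genes of each pathway list and the 3 genes most like each member. The labels do not say that a replicate number marks a shared litter, batch or day, so no pairing was used. Deviations of same-numbered mice from their group means correlated at -0.834 to 0.681, with medians per number of -0.0268 to 0.0278. Some genes are not reported here and were left out of the lists and of the search for like genes, but not of the fits.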

Additional observations from a re-analysis of the deposited data

How the results depend on the processing

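Counts of the 8 genes passing changed with some alternatives, all planned. For avelumab plus 10 µg against isotype control (2 genes), an offset of 10 and a trended, robust variance gave 1, sample weights gave 4, quantile normalization gave 2 (Il6st in place of Il11ra1), and leaving out single mice gave 1 to 3. For avelumab plus 2 µg against isotype control (1 gene), quantile normalization gave 3, sample weights 4, and leaving out single mice 1 to 2. For 10 µg NHS-muIL12 against isotype control (1 gene), quantile normalization and sample weights gave 2. All of these were 0 when only the groups compared were fitted, or without the 4 libraries of high lower quartile. Sample weights gave 1 for avelumab and for 2 µg NHS-muIL12 against isotype control, 2 for avelumab averaged over doses (each 0 as reported), and 5 for the F test (1 gene), which gave 0 without the 4 libraries and 1 to 2 without single mice. For avelumab plus 10 µg against avelumab (0 genes), Il10ra alone passed with a filter at a mean signal of 20 and without the 4 libraries. Il10ra alone also passed with replicate number as a block (1.34, limma adjusted p = 0.0487). Under quantile normalization only Stat3 passed, as lower (-0.38, limma adjusted p = 0.0389). Sample weights gave 2, and leaving out single mice gave 0 to 1. For avelumab plus 2 µg against avelumab (0 genes), quantile normalization and sample weights gave 2. For any NHS-muIL12 against none (1 gene), quantile normalization gave 4. Quantile normalization turned the direction of Stat3 (-0.38) for avelumab plus 10 µg against avelumab, and of Il6st (-0.32) and Stat3 (-0.29) for any NHS-muIL12 against none. The cause of these changes was not tested. The replicate block changed no other call of a member, and the labels do not say that the numbers pair the mice.

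Scaling moved the split of all called genes. For any NHS-muIL12 against none 155 rose and 15 fell, against 93 and 111 with each sample centred on its median and 123 and 171 under quantile normalization. The median change of all genes was 0.07, -0.23 and -0.13 in these fits. Over all 750 genes, sample weights called 269 with avelumab plus 10 µg, 308 with avelumab plus 2 µg, 255 with 10 µg, 98 with avelumab and 90 with 2 µg against isotype control, where 148, 71, 79, 0 and 0 passed as reported. They called 217 for avelumab plus 2 µg against avelumab (81), 310 for any NHS-muIL12 (170), 136 for avelumab averaged over doses (0), 380 by the F test (127), 63 for 10 against 2 µg (0) and 50 for avelumab plus 2 µg against 2 µg (2). Without single mice the first 3 counts against isotype control ran from 63 to 227, 16 to 140 and 23 to 90, and those against avelumab from 52 to 144 (127) and 0 to 95 (81). Fits to the groups compared called 0, 16 and 65 of the first 3 against isotype control and 0 against avelumab. Median centring called 95 with avelumab plus 10 µg and 43 with 10 µg against isotype control, 58 for avelumab plus 10 µg against avelumab, 6 for avelumab averaged over doses and 75 by the F test. Quantile normalization called 128 with avelumab plus 2 µg against isotype control, and 2 for avelumab averaged over doses. Without the 4 libraries 47 were called for avelumab plus 2 µg against avelumab and 12 by the F test.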

Other observations

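In each of the other marker lists 0 or 1 member passed for any NHS-muIL12 against none. Of all tested genes 22.7% passed there, and 2% passed as lower. Of 7 endothelial genes measured 1 fell, Cdh5, which encodes a cadherin of endothelial junctions. Of 6 mast cell and eosinophil genes 1 fell, Tpsab1, which encodes a mast cell tryptase and was dim, with a mean signal of 21.6. Of 8 fibroblast and pericyte genes, 6 neutrophil genes and 3 tumour epithelial genes, 0 passed the limma test, against 2, 1 and 0 at an unadjusted p under 0.05.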
